A study of Mus musculus with 34 samples.

Results

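The genes that encode the aminoacyl-tRNA synthetases were examined in cumulus cells (CCs), the granulosa cells that surround the oocyte. A list of 36 symbols was matched exactly to the gene names of the deposited count table, and all 36 were among its 25965 entries. They comprise 20 genes named for a cytosolic enzyme and 16 genes whose name ends in 2 and whose enzyme works in mitochondria. The RNA came from 34 libraries of superovulated C57BL/6J females that were 8 weeks old when the protocols began. For the pharmacological model of hyperleptinemia, females received intraperitoneal injections for 16 days, either of saline (16 C, n = 3) or of leptin at a total of 100 μg per day (16 L, n = 5). In the diet-induced obesity (DIO) model, mice were fed chow diet (CD, 11% of energy from fat) or high-fat diet (HFD, 58% of energy from fat) for 4 weeks (n = 5 each) or for 16 weeks (CD, n = 6, and HFD, n = 7). A further 3 libraries came from mice labelled low weight gainers after 16 weeks of HFD, a group defined by the response of the animals to the diet and not by assignment. The labels describe about 50 cells of 1 cumulus-oocyte complex per library, whereas the study's methods give about that number of cells for each animal, and no label ties the animals of different groups to each other.

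Each synthetase joins its amino acid to the matching tRNAs, which then carry it to the ribosome. Most cells keep separate genes for the enzymes that serve the cytosol and those that serve the mitochondrial matrix, where a small set of respiratory chain subunits is translated. Gars and Kars supply both compartments from the same gene, and Qars has no mitochondrial partner because mitochondria charge that tRNA through an amidotransferase. The cytosolic synthetases encoded by Dars, Eprs, Iars, Kars, Lars, Mars, Qars and Rars, sit in a multisynthetase complex with the scaffold proteins of Aimp1, Aimp2 and Eef1e1. When amino acids run short, uncharged tRNA activates the kinase of Eif2ak4 (GCN2), and the transcription factor ATF4 then raises many cytosolic synthetase genes together with genes of amino acid synthesis and transport. In CCs protein synthesis accompanies the secretion of the expanding matrix and the supply of amino acids to the oocyte.

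ATF4 binds DNA with a C/EBP partner at elements that share the core TGATGNAA. That core was searched on both strands in the 300 bases around the RefSeq gene starts of GRCm38.p6, from 250 bases before to 50 bases after each start. Windows were at hand for 26 of the 36 genes, 12 cytosolic and 14 mitochondrial. The cytosolic Cars, Hars, Lars, Mars, Nars, Rars, Vars and Wars had none and were not searched. The same holds for the mitochondrial Hars2 and Pars2. The core was found in 5 of 12 windows of cytosolic genes (41.7%) and in 0 of 15 windows of 14 mitochondrial genes, against 3.97% of all 32851 windows and 9 of 30 windows of ATF4 target genes. The 5 windows are shown because they set these cytosolic genes apart from the mitochondrial ones in sequence. Each line gives the 170 bases from 150 before to 20 after the start, on the strand of the gene, and capitals mark the core. In all of them but Yars the capitals show its reverse complement, since the core lies on the opposite strand. The windows lie at chr8:111033692-111033861 (Aars, plus strand), chr6:55037851-55038020 (Gars, plus strand), chr13:49681980-49682149 (Iars, plus strand), chr15:11399639-11399808 (Tars, minus strand) and chr4:129189753-129189922 (Yars, plus strand).
Aars: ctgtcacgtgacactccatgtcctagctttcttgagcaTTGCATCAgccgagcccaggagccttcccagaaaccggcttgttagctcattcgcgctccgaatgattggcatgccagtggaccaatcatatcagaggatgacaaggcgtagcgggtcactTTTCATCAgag
Gars: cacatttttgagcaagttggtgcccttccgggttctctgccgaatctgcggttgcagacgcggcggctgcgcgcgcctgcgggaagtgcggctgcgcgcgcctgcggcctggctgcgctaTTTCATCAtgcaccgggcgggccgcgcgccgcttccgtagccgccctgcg
Iars: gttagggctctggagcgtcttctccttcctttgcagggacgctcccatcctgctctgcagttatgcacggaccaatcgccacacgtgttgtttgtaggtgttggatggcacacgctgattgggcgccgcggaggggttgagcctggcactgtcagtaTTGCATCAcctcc
Tars: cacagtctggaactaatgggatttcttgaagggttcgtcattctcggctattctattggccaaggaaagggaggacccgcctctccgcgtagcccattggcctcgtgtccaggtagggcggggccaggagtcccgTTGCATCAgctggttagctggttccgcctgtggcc
Yars: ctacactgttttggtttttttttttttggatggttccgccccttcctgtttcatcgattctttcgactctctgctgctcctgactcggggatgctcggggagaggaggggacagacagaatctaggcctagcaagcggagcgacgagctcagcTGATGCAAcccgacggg
The alanyl-tRNA synthetase gene Aars held 2 matches, which began 112 bases before the start and at base 9 after it. The match began 30 bases before the start in Gars (glycine) and 15 bases before it in Tars (threonine). It began at base 7 in Iars (isoleucine) and at base 3 in Yars (tyrosine). These matches describe the letters only, and no binding was measured.

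The libraries held between 1104611 and 13207018 counts (median 4035575.5), so that a count of 0 allowed between 0.227 and 2.72 RPM, reads scaled to the library total, at 95% confidence for counting error alone. Reads of Aars2 were counted in 33 libraries, reads of Pars2 in 32, and reads of the other 34 genes in all 34. Of the 36 genes, 11 overlap an entry on the opposite strand, whose reads cannot be told apart without strand (Farsb, Hars, Lars, Mars, Vars, Yars, Cars2, Ears2, Hars2, Iars2 and Nars2). Of the cumulus and granulosa markers, Inha and Inhba were read in every library, at 220.8 to 1037.9 RPM and at 93.9 to 415.5 RPM. All markers of that list together summed to 400 to 1547 RPM, and the others are not given singly. The 16 L library numbered 18 stood apart. Its 7 oviduct epithelium markers summed to 29971 RPM (14.1 to 2309 in the other 16 L libraries, 19.6 to 71.2 in 16 C), its cumulus expansion genes to 3.13 RPM (266 to 852 in the others of 16 L, 883 to 1405 in 16 C), and its red blood cell genes to 9805 RPM. The red blood cell genes also summed to 2549 RPM in the 16 L library numbered 21, against 3.74 to 44.7 in the other 3 and 1.06 to 19.3 in 16 C. In the 4-week HFD library numbered 5, the 9 oocyte markers summed to 346 RPM, against at most 1.19 in the other 4-week HFD libraries. Results of 16 L and of 4-week HFD are therefore given with and without these libraries. In bulk RNA, fewer cells of a type and less RNA per cell cannot be told apart. The p-values measure the spread between libraries.

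Levels below are CPM, counts scaled to the library total and by TMM factors over all 34 libraries, and levels of different genes are compared only per kilobase of the longest GENCODE M21 transcript. Per kilobase, Lars2, which encodes the mitochondrial leucyl-tRNA synthetase, had the highest median over libraries at 175 CPM. Dars (aspartate) followed at 92.9, Nars (asparagine) at 75.4, and Eprs, whose bifunctional protein charges glutamate and proline tRNAs, at 46.7. The lowest medians were those of Mars2 at 0.329, Aars2 at 0.753, Pars2 at 1.18 and Vars2 at 1.24 CPM per kilobase, all mitochondrial. The transcript of 11294 bases taken for Mars2 is longer than its whole counted entry (chromosome 1, 55237177 to 55240058). Its value per kilobase may therefore be too low, and its rank among these genes is uncertain. The median of the 20 cytosolic genes was 21.0 CPM per kilobase, from 3.26 (Vars, valine) to 92.9. That of the mitochondrial genes was 4.71, and 4.63 with a highest value of 35.2 (Rars2, arginine) when Lars2 was left out.

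**Figure D1:**
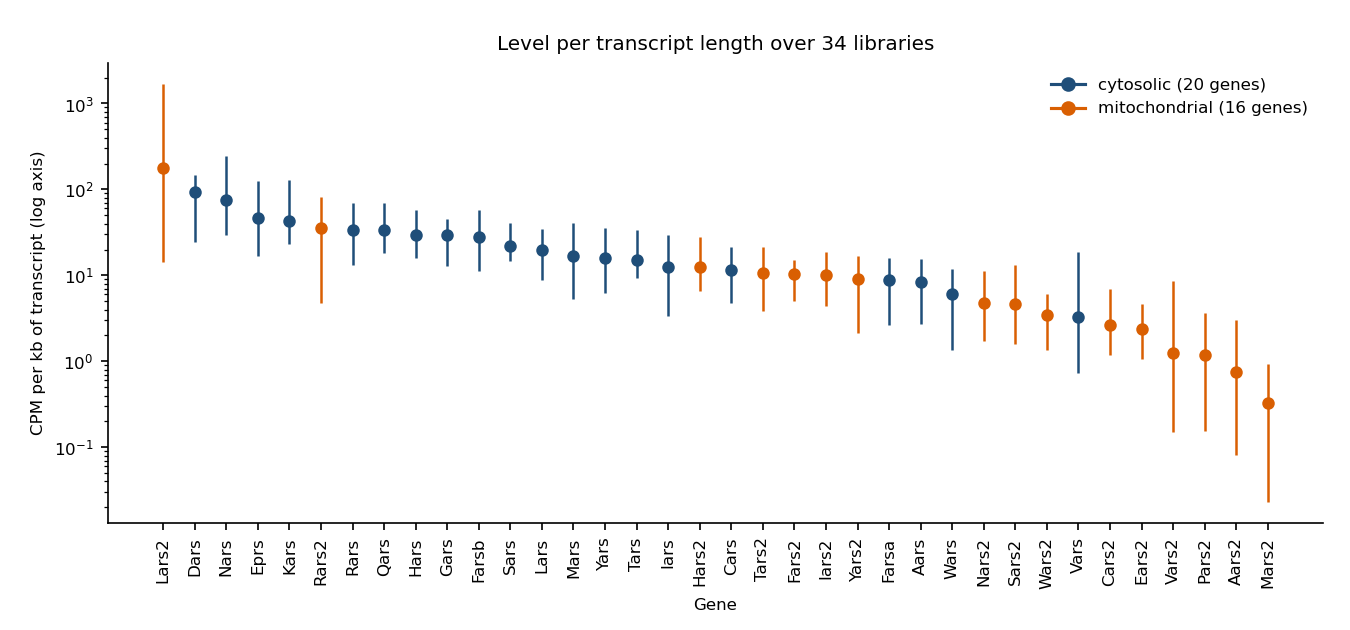
Levels of the 36 synthetase genes per kilobase of transcript, in CPM per kilobase on a log axis, cytosolic and mitochondrial genes in separate colours. Points are medians over 34 libraries and lines span the lowest to the highest library, with 1 library of Aars2 and 2 of Pars2 at 0 left undrawn. Mitochondrial genes lie mostly lower on the axis than cytosolic ones, except that Lars2, at a median of 175, is above every other gene.

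For the same amino acid, the cytosolic gene had the higher median per kilobase in 14 of 17 pairings. The ratio was 51.2 for Mars over Mars2 (methionine), which may be too high because of the long transcript taken for Mars2. It was 39.5 for Eprs over Pars2, 19.7 for Eprs over Ears2, 15.7 for Nars over Nars2 and 11.1 for Aars over Aars2. It fell below 1 in 3 pairings. Lars was at 0.113 of Lars2, Farsa at 0.850 of Fars2, and Rars at 0.963 of Rars2. The phenylalanine enzyme of the cytosol has 2 subunits, and Farsb, the other one, was at 2.70 times Fars2. In the order of medians over the 36 genes, the ranges over libraries of all neighbours overlapped. Rars2, Rars and Qars, for instance, stood at 35.2, 33.9 and 33.4 CPM per kilobase. In the sum over genes, the cytosolic CPM were 2.66 to 7.13 times the mitochondrial CPM without Lars2 (median 5.22). This ratio ran from 2.66 to 4.86 in 4-week CD and from 4.81 to 5.30 in 4-week HFD. It was 4.16 to 6.83 in 16-week CD, 6.12 to 7.13 in 16-week HFD and 5.59 to 6.87 in the low gainers. In 16 C it was 4.52 to 5.42, and in 16 L 4.52 to 5.21. Lars2 alone held 2.04% to 80.6% of all reads on the 36 genes, with a median of 23.4%.

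Their levels varied less between libraries than those of other genes did in the median. The standard deviation (SD) of log2 CPM over the 34 libraries had a median of 0.61 for the synthetase genes (0.59 cytosolic, 0.62 mitochondrial), against 0.79 for all 12013 genes compared. The genes were not matched for level, and the part of level in this difference was not tested. Sars (serine) was the steadiest at 0.37, ranging from 52.5 to 147 CPM. Among the 36 genes Lars2 varied most, with an SD of 1.72 and levels from 56.3 to 6579 CPM, followed by Vars at 1.504 and Vars2 at 1.45.

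The libraries fell into 2 sets by their TMM factor, with a gap between 0.989 and 1.11, and 16 L and 16-week CD had libraries in both. The upper set held 16 libraries, namely all 10 of 4 weeks, the 16 L libraries numbered 19, 20, 21 and 23, and the 16-week CD libraries numbered 1 and 2. Vars had a median of 50.2 CPM in the upper set (37.0 to 76.7) and of 8.16 in the other 18 libraries (3.03 to 14.03). Rars2 showed the opposite order, with 25.2 CPM (8.95 to 43.2) in the upper set and 89.96 (63.8 to 151) in the lower one. Nars (81.8 to 181 against 196 to 681) and Iars2 (56.8 to 103 against 23.9 to 56.2), the isoleucine gene of mitochondria, also showed no overlap. These 4 of 36 genes compare with 7.90% of 12184 genes whose sets did not overlap. The factors that define the sets were computed from these same counts and also scale the levels. These counts are therefore a description and not a test. The differences between the sets went along with the GC content of the transcripts. The 2 valine genes, Vars at 60.9% GC and Vars2 at 58.6%, differed by 2.80 and 2.54 on the log2 scale, and Eprs (44.0%), Rars2 (44.1%) and Nars (47.2%) by -1.72, -1.93 and -1.57. Across the 36 genes Pearson's r of GC content and this difference was 0.64, and it was 0.38 across all 12013 genes. All points share the same libraries, and genes are not replicates. Because the sets were spread unevenly over the groups, the comparison of 16 L with 16 C below also compares mostly the upper set with the lower one. In 16-week HFD or low gainers against 16-week CD, only the CD libraries 1 and 2 were in the upper set. The 4-week diets were compared within the upper set, and low gainers and 16-week HFD within the lower one.

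**Figure D2:**
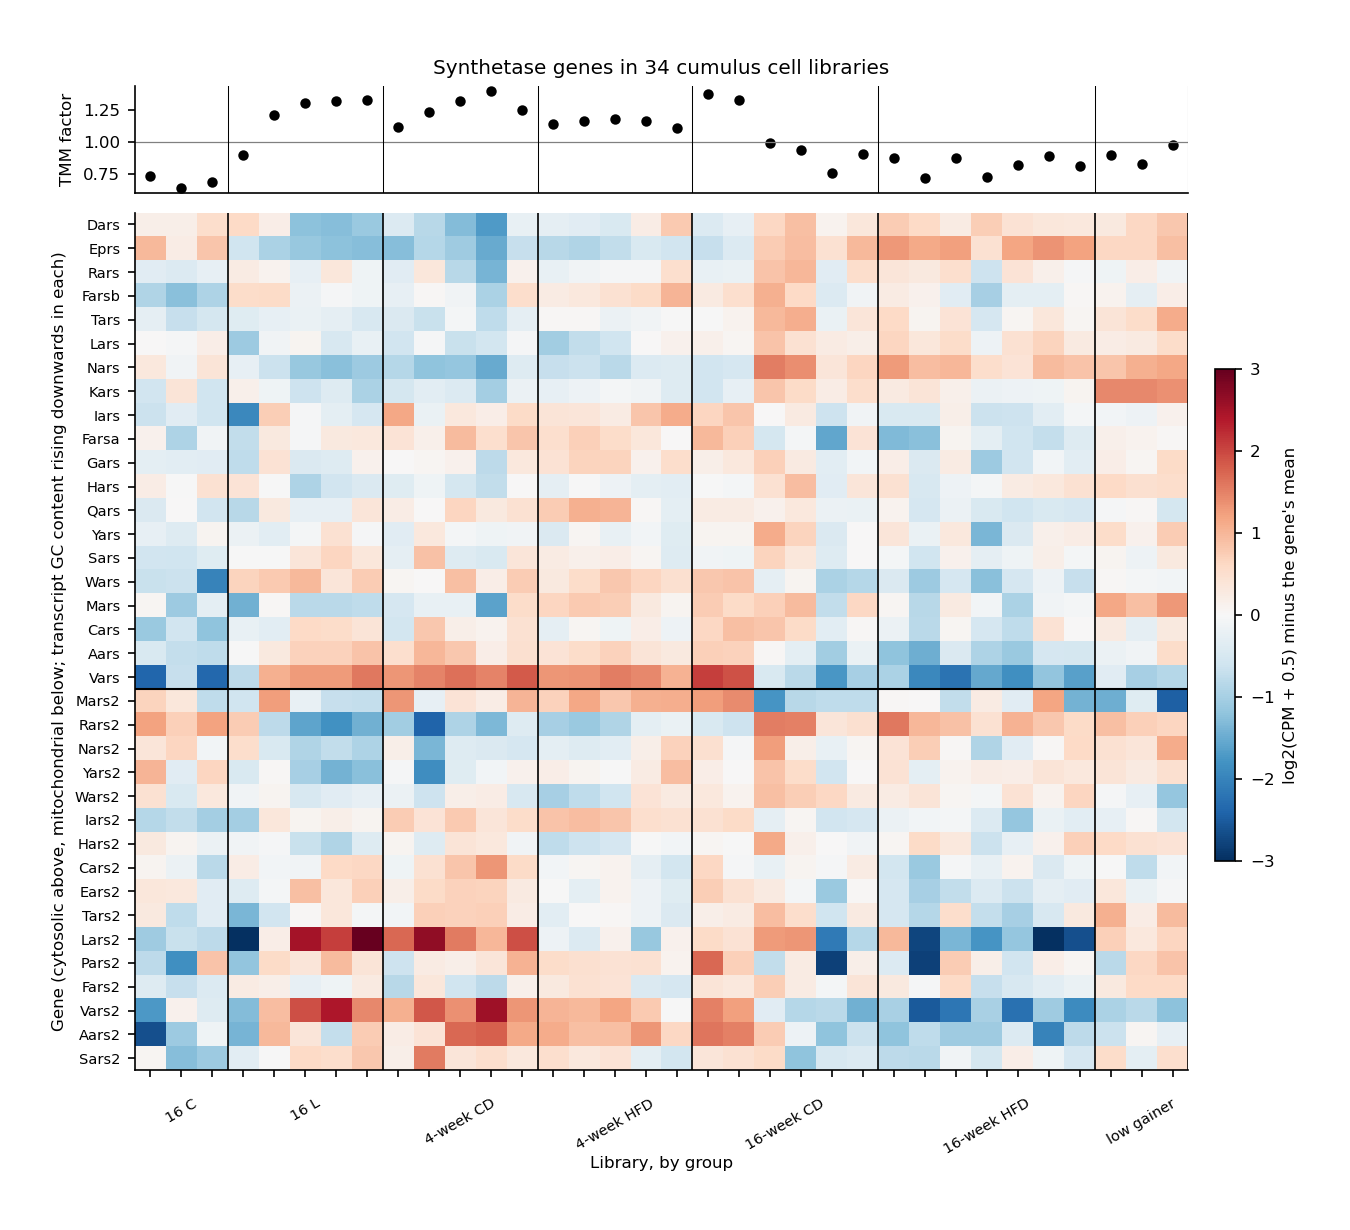
Level of each synthetase gene in each library as log2(CPM + 0.5) minus the mean of the gene, with libraries by group in columns, and genes in rows by class and by GC content of the transcript. The TMM factor of each library is drawn above. In the 16 libraries with a factor of 1.11 or more, Vars lies above and Nars and Rars2 lie below all other libraries, while the values of Vars2, Aars2 and Eprs overlap between the sets.

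The comparison of 16 L with 16 C asked which genes differed after 16 days of leptin. The gene of the glutamate and proline enzyme, Eprs, was lower in 16 L, and those for tryptophan (Wars) and valine (Vars) were higher. In edgeR's quasi-likelihood test, adjusted after Benjamini and Hochberg over 11723 genes, 3 of 36 synthetase genes passed 0.05, against 8.56% of all genes tested. They were 2 higher and 1 lower, against 4.06% and 4.5% of all genes, and all 3 were cytosolic. DESeq2 called 9, against 22.4% of all genes. At an unadjusted p under 0.05 there were 13, against 32.4% of all genes. The median log2 fold change was 0.23 for the 36 genes, 0.20 for the cytosolic and 0.40 for the mitochondrial ones, and 0.27 for all genes tested.

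Eprs (chromosome 1, 185363095 to 185428355) was at 538, 321 and 487 CPM in 16 C. In 16 L it was at 183 CPM in the library numbered 18 and at 143, 126, 118 and 113 CPM in the others. Every 16 L library was below every 16 C library. The means were 449 ± 114 (SD, n = 3) and 137 ± 28.5 (SD, n = 5), a log2 fold change of -1.71 (SE 0.33, adjusted p = 0.0240, edgeR).

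Wars (chromosome 12, 108860030 to 108894174) encodes an enzyme that is also induced by interferon in many cells. It was at 10.6, 10.8 and 3.86 CPM in 16 C and at 27.4, 29.8, 34.0, 22.1 and 29.4 in 16 L, again without overlap. The log2 fold change was 1.75 (SE 0.44, adjusted p = 0.0411, edgeR).

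Vars (chromosome 17, 35000987 to 35016322) was at 3.03, 10.9 and 3.09 CPM in 16 C. It was at 10.1 CPM in the 16 L library numbered 18, within the range of 16 C, and at 38.2, 44.1, 44.1 and 54.1 in the others. The log2 fold change was 2.63 (SE 0.67, adjusted p = 0.0438, edgeR). The entry it overlaps on the opposite strand is D17H6S56E-5.

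The ranges of 16 C and 16 L were separate for 9 of the 36 genes, against 23.4% of all genes tested. The 7 above every 16 C library were Wars, Aars, Cars (cysteine), Farsb, Rars, Sars and the mitochondrial Fars2, against 12.2% of all genes. The 2 below were Eprs and Nars, against 11.2%. Aars stood at 28.1 ± 3.27 CPM in 16 C and 64.0 ± 15.0 in 16 L (adjusted p = 0.0523, edgeR), and Nars at 272 ± 47.6 and 132 ± 41.3 (adjusted p = 0.0827, edgeR).

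Leaving out the 16 L library numbered 18 raised the number of genes past the threshold to 16 of the 35 then tested, against 41.8% of all genes. Of these, 9 were higher (Aars, Cars, Farsb, Sars, Vars, Wars and the mitochondrial Iars2, Lars2 and Vars2) and 7 lower (Dars, Eprs, Hars, Nars and the mitochondrial Nars2, Rars2 and Yars2). Rars2 was at 81.3 to 116 CPM in 16 C and at 13.8 to 28.8 in the 4 remaining 16 L libraries, a log2 fold change of -2.50 (SE 0.29, adjusted p = 0.00024, edgeR). Without that library the values of Eprs, Vars and Wars were -1.92, 2.70 and 1.67, with adjusted p of 0.00035, 0.0021 and 0.0100. The 4 other 16 L libraries held 14.1 to 2309 RPM of oviduct markers and 74.9 to 1423 RPM of macrophage and neutrophil markers (71.9 to 449 in 16 C), and every 16 L library was below every 16 C library in cumulus expansion genes. The part of these cells in the results was not tested. The groups also differed by the 2 sets of libraries, since all 16 C libraries were in the lower set and 4 of 5 of 16 L in the upper one. Where the library numbered 18 was left out, group and set coincided, and leptin and set cannot be told apart there. With the trend of each library on GC content removed, 2 genes passed (5.37% of all genes), Eprs at -1.39 (adjusted p = 0.0366, edgeR) and Farsb, a subunit gene of the phenylalanine enzyme, at 1.42 (adjusted p = 0.0320), while Vars was at 1.45 (adjusted p = 0.110) and Wars at 1.39 (adjusted p = 0.0821). With that trend removed and the library left out as well, 10 genes passed, against 39.8% of all genes. Each of the 3 calls was also lost when any single 16 C library or the 16 L library 20, 21 or 23 was left out (adjusted p of 0.0541 to 0.184).

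In the multisynthetase complex, 1 of the 8 synthetase genes, Eprs, passed in 16 L. Values below 0 were found in 5 of 8, a count given without the share of all genes below 0. The counts of genes that passed in this complex and in the lists that follow stand beside the 8.56% of all genes that passed. Of the 3 scaffold genes, 2 passed and both were lower. Eef1e1 was at 134, 102 and 121 CPM in 16 C and at 32.8, 42.7, 13.5, 10.3 and 16.2 in 16 L, with a log2 fold change of -2.34 (adjusted p = 0.0260, edgeR). Aimp2 was lower by 1.46 (adjusted p = 0.0433), from 41.9 to 103 CPM in 16 C to 24.0 to 41.1 in 16 L. Among the 10 genes of amino acid sensing, Gcn1l1, whose product carries the signal of uncharged tRNA to GCN2, was higher (3.16, adjusted p = 0.0270), at 3.79 to 5.79 CPM in 16 C and 7.70 to 59.0 in 16 L. Impact, which encodes an inhibitor of that step, was lower (-3.14, adjusted p = 0.0447), at 349 to 491 CPM in 16 C and 14.5 to 153 in 16 L. Of 25 tested ATF4 target genes, 1 was higher, the serine synthesis gene Psat1 (3.11, adjusted p = 0.0477, edgeR), with its largest value of 46.4 CPM in the library numbered 18 and 6.90 to 19.2 in the others of 16 L. None passed among 12 genes of the mitochondrial amidotransferase and translation factors, 5 of cytosolic elongation and 6 ligase-like and editing genes. With the GC trend removed Gcn1l1 was at 2.13 (adjusted p = 0.0605) and Impact at -2.80 (adjusted p = 0.0654), and neither passed. Leaving out any single 16 C library or the 16 L library 20, 21 or 23 also ended the calls of Eef1e1, Aimp2, Gcn1l1, Impact and Psat1, with adjusted p of up to 0.194 (edgeR).

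**Figure D3:**
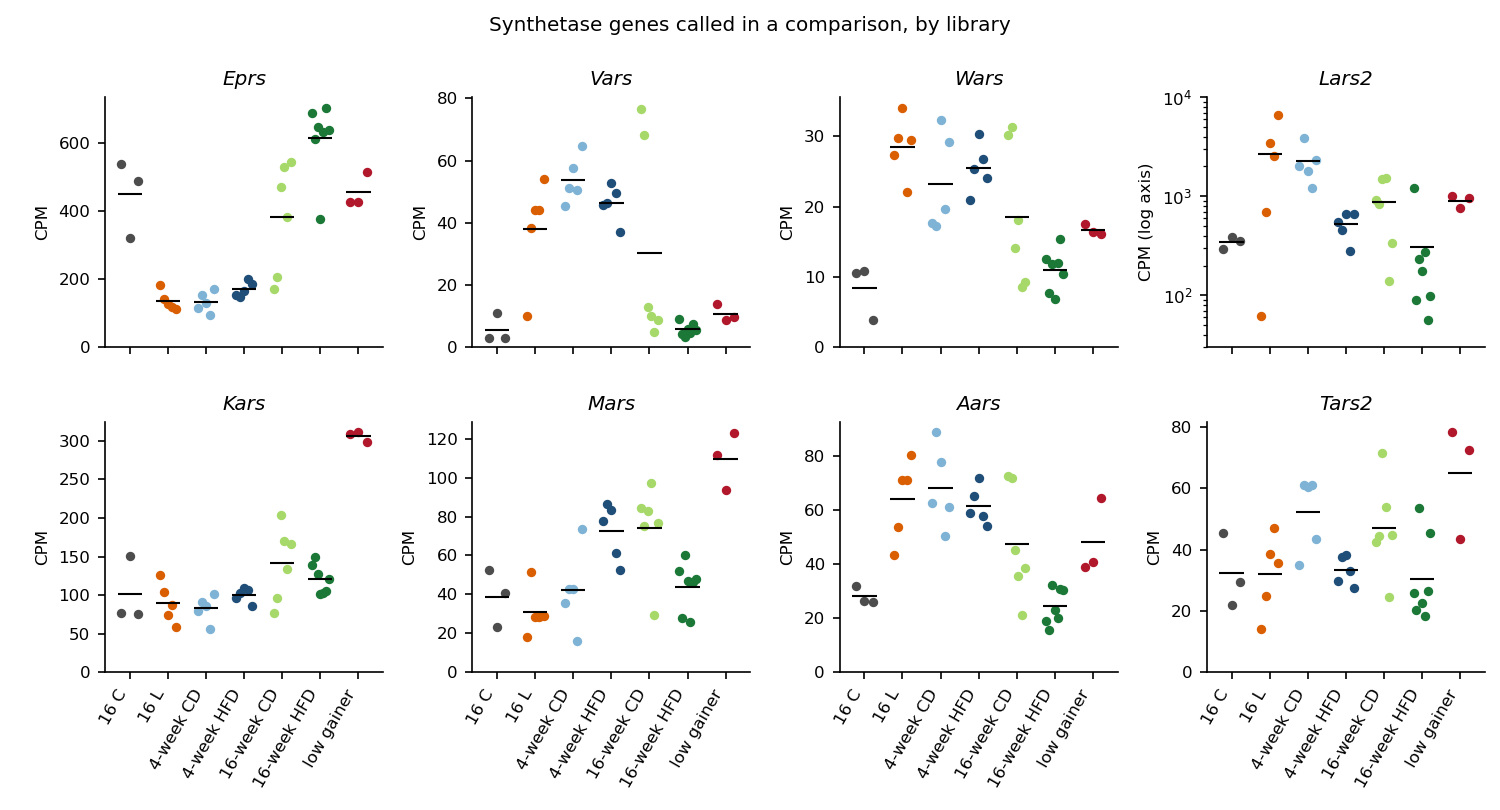
Levels by library, in CPM, of the synthetase genes that passed the test in any comparison, with 1 dot per library, bars at group means and Lars2 on a log axis. In Kars the 3 low gainers lie at 298 to 311, above all other libraries, and in Eprs the 16 L libraries lie at 113 to 183, below all 3 of 16 C.

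The comparison of 4-week HFD with 4-week CD asked about the early response to the diet. Lars2 was lower in HFD, and none of the other 35 genes passed. That 1 of 36 compares with 4.26% of 11727 genes tested by edgeR's quasi-likelihood test, and 3.06% that were lower. At an unadjusted p under 0.05 there were 9 synthetase genes, against 24.3% of all genes. The median log2 fold change was 0.19 for the cytosolic genes and -0.17 for the mitochondrial ones, with -0.01 for all genes.

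Lars2 (chromosome 9, 123366940 to 123462664) was at 2028, 3846, 1807, 1212 and 2348 CPM in 4-week CD. In 4-week HFD it was at 549, 458, 664, 279 and 663 CPM. The groups did not overlap, and the means were 2248 ± 985 and 523 ± 161 (SD, n = 5 each). The log2 fold change was -2.12 (SE 0.35, adjusted p = 0.0130, edgeR). It was -2.21 without the HFD library numbered 5 (adjusted p = 0.0404) and -1.76 with the mitochondrial read share as a covariate (adjusted p = 0.0221). Without the CD library numbered 11, 5 synthetase genes passed, against 14.4% of all genes. In a fit of all 34 libraries, where the spread of Lars2 is shared with the other groups, the value was -2.10 and did not pass (adjusted p = 0.161).

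The 2 diets had separate ranges for 2 of the 36 genes, both lower in HFD, against 6.62% of all genes in either direction and 3.74% lower. The other was Ears2, the mitochondrial glutamate gene, at 16.9 ± 2.78 CPM in CD and 10.8 ± 1.53 in HFD (adjusted p = 0.112, edgeR). Of the ATF4 target genes, 2 of 26 were lower, beside 3.06% of all genes, the transcription factor gene Atf5 by 1.88 (adjusted p = 0.0189) and the cationic amino acid transporter gene Slc7a3 by 1.43 (adjusted p = 0.0398). Eif2s1, the subunit of eIF2 that GCN2 phosphorylates, was higher by 1.15 (adjusted p = 0.0418). Without the HFD library numbered 5 these values were -1.84, -1.32 and 1.23, and none of the 3 passed (adjusted p of 0.0546, 0.0893 and 0.0686, edgeR). The losses were not particular to that library. Over 10 fits that each left out 1 library, Eif2s1 and Slc7a3 passed in 1 each and Atf5 in 7. None passed among 3 scaffold genes, 12 of mitochondrial translation, 5 of elongation and 6 ligase-like genes.

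Reads of mitochondrial ribosomal RNA can be assigned to Lars2 in mouse data, so its level was set beside the share of reads on 13 protein-coding mitochondrial genes. Entries of mitochondrial ribosomal RNA were not analysed here, and their part in the level of Lars2 was not tested. By group, Lars2 was at 292 to 386 CPM in 16 C and at 62.1, 702, 3434, 2580 and 6579 in 16 L. It was at 140 to 1527 in 16-week CD (median 872), at 56.3 to 1209 in 16-week HFD (median 178) and at 998, 761 and 960 in the low gainers. The mitochondrial share was 0.335% to 0.628% in 16 C, 0.828% to 7.72% in 4-week CD, 3.57% to 5.25% in 4-week HFD, 0.902% to 2.31% in 16-week CD, 0.786% to 1.53% in 16-week HFD and 0.337% to 0.614% in the low gainers. In 16 L it was 0.435% to 0.654% except for 4.71% in the library numbered 19. The 4 highest levels of Lars2, in the 16 L libraries 20, 21 and 23 and the 4-week CD library numbered 2, stood beside shares of 0.479% to 0.828%, and the 4-week HFD libraries, at 279 to 665 CPM, stood beside shares of 3.57% or more.

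In 16 L against 16 C the log2 fold change of Lars2 was 2.94 (adjusted p = 0.121, edgeR), and 2.93 by DESeq2 (adjusted p = 0.0131). It passed in 6 of 18 alternative fits.

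Over all 34 libraries Pearson's r of log2 Lars2 and the log2 share was 0.14 (p = 0.420, permutation test) and Spearman's rho 0.078 (p = 0.655, permutation test). Without the 2 libraries farthest from the median share, r was 0.11 (p = 0.556, permutation test). After group means were removed r was -0.11 (p = 0.504, permutation test). Within 16-week CD r was 0.57 (p = 0.250, exact permutation test, n = 6) and rho 0.49. Within 16-week HFD r was 0.72 (p = 0.0762, exact permutation test, n = 7) and rho 0.50. The other groups are smaller than 6. Of 12 p-values computed for this relation the adjusted values were 0.71 to 0.793, and none passed.

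**Figure D4:**
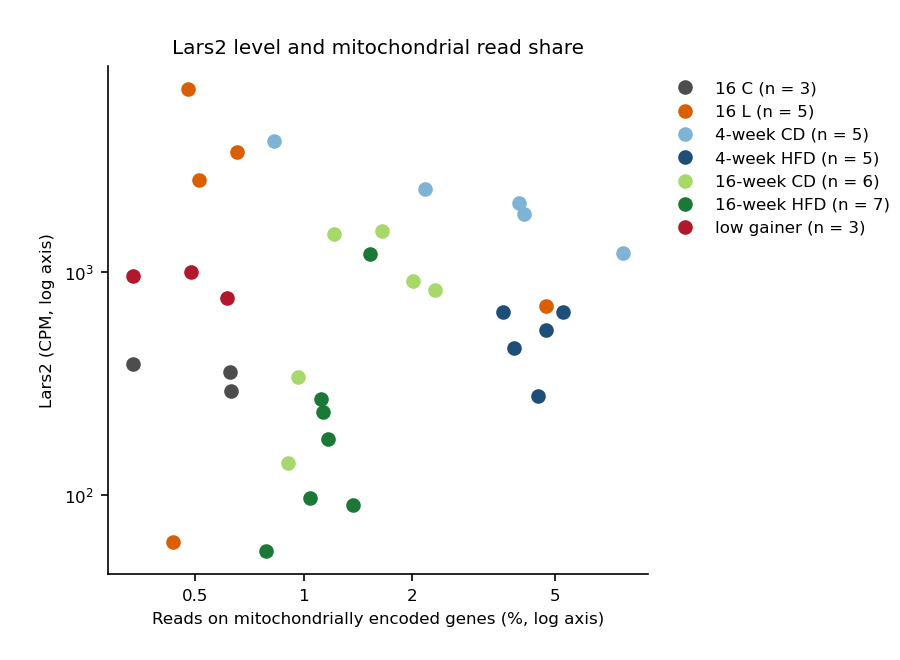
Lars2 in CPM against the share of reads on mitochondrially encoded genes in percent, 1 point per library coloured by group, both axes on a log scale. The 4-week HFD libraries lie at shares of 3.57% to 5.25% with Lars2 at 279 to 665 CPM, and the 16 L libraries numbered 20, 21 and 23 lie at 2580 to 6579 CPM at shares of 0.479% to 0.654%.

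The comparison of 16-week HFD with 16-week CD asked about the prolonged diet. Most synthetase genes had lower values in HFD, but none passed. Of the 35 genes tested, 30 had a log2 fold change below 0, with a median of -0.41 against -0.05 for all 10861 genes. The median was -0.42 for the cytosolic and -0.41 for the mitochondrial genes. By edgeR's quasi-likelihood test 0 of 35 passed, against 0.0276% of all genes, and 14 had an unadjusted p under 0.05, against 25.3%. DESeq2 called 3 (Aars, Vars and Vars2, all lower, against 9.72% of all genes) and limma-voom 0. No synthetase gene had separate ranges, against 0.994% of all genes.

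Vars had the lowest p. It was at 76.7 and 68.3 CPM in the 16-week CD libraries numbered 1 and 2, at 4.97 to 12.9 in the other 4, and at 3.44 to 8.99 (median 5.44) in the 7 of HFD. The log2 fold change of -2.41 (SE 0.59, adjusted p = 0.0654, edgeR) became -0.58 (adjusted p = 0.576) when the CD libraries 1 and 2, which belong to the upper set, were left out. No synthetase gene passed in edgeR then (0.00909% of all genes), and 29 of 35 had values below 0, with a median of -0.31. The share of all genes below 0 in that fit is not given here. Without the CD library numbered 9 instead, 8 genes were lower (Aars, Cars, Ears2, Farsa, Iars, Mars, Vars and Wars), against 20.5% of all genes. Eprs was the main exception to the direction, at 425 CPM in the median of CD (171 to 543) and at 637 in that of HFD (377 to 703), a log2 fold change of 0.69 (adjusted p = 0.143, edgeR). Lars2 was at -1.52 (adjusted p = 0.161). No related gene passed among 3 scaffold, 12 mitochondrial translation, 10 sensing, 24 ATF4 target, 5 elongation and 6 ligase-like genes tested.

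The low weight gainers were compared with 16-week HFD, which received the same diet. The cytosolic genes Kars (lysine), Mars (methionine) and Aars (alanine) and the mitochondrial gene Tars2 (threonine) were higher in the low gainers, and no synthetase gene was lower. They were 4 of 35 tested, against 20.7% of 11258 genes called in either direction and 10.8% called higher by edgeR's quasi-likelihood test. At an unadjusted p under 0.05 there were 12, against 36.3% of all genes. Of the 35 genes, 29 had values above 0, with a median log2 fold change of 0.35 (0.31 cytosolic, 0.46 mitochondrial) and -0.03 for all genes.

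Kars (chromosome 8, 111993440 to 112011323) was at 309, 311 and 298 CPM in the low gainers and at 101 to 150 (median 121) in 16-week HFD. The next highest library of the 34, in 16-week CD, was at 204 CPM. The means were 306 ± 6.97 (SD, n = 3) and 121 ± 18.99 (SD, n = 7), a log2 fold change of 1.30 (SE 0.19, adjusted p = 0.00096, edgeR). Kars passed in each of 19 alternative fits of this comparison.

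Mars (chromosome 10, 127296221 to 127311786), whose enzyme also charges the initiator tRNA, was at 112, 93.5 and 123 CPM against 25.7 to 60.4 (median 46.8) in HFD, without overlap. The log2 fold change was 1.28 (SE 0.22, adjusted p = 0.0019, edgeR). It overlaps Ddit3 on the opposite strand.

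Aars (chromosome 8, 111033144 to 111057664) was at 39.0, 40.9 and 64.4 CPM against 15.7 to 32.4 (median 22.9), also without overlap, with a log2 fold change of 0.94 (SE 0.25, adjusted p = 0.0163, edgeR). The other 4 genes whose windows held the core were at 0.50 (Gars), 0.24 (Iars), 0.50 (Tars) and 0.51 (Yars), and none of them passed (adjusted p of 0.116 to 0.428).

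Tars2 (chromosome 3, 95739976 to 95754977), the mitochondrial threonine gene, was at 78.2, 43.6 and 72.5 CPM against 18.4 to 53.6 (median 25.9) in HFD. The low gainer numbered 22 lay within the HFD range. The log2 fold change was 1.06 (SE 0.29, adjusted p = 0.0176, edgeR). With the low gainer numbered 23 left out, 2 genes passed (5.19% of all genes), and Aars and Tars2 were not among them (0.67 and 0.97, adjusted p of 0.165 and 0.104), and Tars2 also not without the one numbered 21 (0.90, adjusted p = 0.10).

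The low gainers lay above every HFD library for 6 of the 36 genes (Aars, Hars, Kars, Mars, Wars and Ears2), against 11.5% of all genes above and 20.4% above or below. Lars2 was at 1.56 (adjusted p = 0.206), and at 2.51 (adjusted p = 0.00070) without the HFD library numbered 6, whose 1209 CPM stood apart from 56.3 to 271 in the others. Lars2 also passed by DESeq2 (2.21, adjusted p = 0.0015) and by limma-voom (2.31, adjusted p = 0.0035). The mitochondrial read shares of the groups did not overlap either, at 0.337% to 0.614% in the low gainers and 0.786% to 1.53% in HFD. With that share as a covariate 1 gene passed (1.49% of all genes), Kars at 1.70 (adjusted p = 0.0474), with Mars at 0.88, Tars2 at 0.27, Aars at -0.28 and Lars2 at 5.402 (adjusted p = 0.216, edgeR). With the GC trend removed 3 passed (12.4% of all genes), Kars at 1.39, Mars at 1.00 and Tars2 at 0.93, and Aars was at 0.49 (adjusted p = 0.150, edgeR).

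Of 25 ATF4 target genes tested in this comparison, 8 were higher and 2 lower in the low gainers. The 4 with the lowest adjusted p were Shmt2 (serine and glycine metabolism in mitochondria), Slc3a2 (heavy chain of amino acid transporters), Vldlr (very low density lipoprotein receptor) and Cebpb (a C/EBP partner of ATF4). Shmt2 was at 158, 117 and 194 CPM in the low gainers and at 26.7 to 94.3 in HFD (1.66, adjusted p = 0.0020, edgeR). Slc3a2 was at 490, 324 and 581 against 126 to 259 (1.18, adjusted p = 0.0035). Vldlr was lower, at 197, 160 and 168 against 268 to 391 (-1.06, adjusted p = 0.0036), and Cebpb was at 87.3, 66.9 and 229 against 12.7 to 57.1 (1.88, adjusted p = 0.0058). These 4 did not overlap between the groups. Of the sensing genes, Ppp1r15a, which encodes a regulator of the eIF2 phosphatase, was higher (0.96, adjusted p = 0.0124), and 9 others did not pass. Of the 3 scaffold genes of the multisynthetase complex 2 were lower, Eef1e1 (-0.91, adjusted p = 0.0162) and Aimp1 (-0.65, adjusted p = 0.0338), while 2 of its 8 synthetase genes, Kars and Mars, were higher. Among the factors of mitochondrial translation, Tufm was higher (0.85, adjusted p = 0.0359) and Mtif2 (-0.72, adjusted p = 0.0218) and Mtrf1 (-0.68, adjusted p = 0.0329) were lower. None passed among 5 elongation and 6 ligase-like genes. Of all genes tested in this comparison 20.7% passed, and the counts for these lists stand beside that share. Shmt2, Slc3a2 and Vldlr passed whichever single library was left out. Over these 10 fits Ppp1r15a and Cebpb passed in 9, Eef1e1 in 8, Mtif2 in 7, Aimp1 and Mtrf1 in 6 and Tufm in 4. With the GC trend removed, Ppp1r15a, Eef1e1, Aimp1, Mtif2, Mtrf1 and Tufm did not pass. With the mitochondrial read share as a covariate, none of the 16 related genes called here passed, beside 1.49% of all genes. That share did not overlap between the groups, so this fit can hardly tell group and share apart.

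Against 16-week CD, which had other food for the same time, 0 of 35 synthetase genes passed in the low gainers by edgeR's quasi-likelihood test, beside 0.00861% of 11620 genes. At an unadjusted p under 0.05 there were 2, against 11.2%. DESeq2 called 0 (2.15% of all genes) and limma-voom called 1, Kars (1.69%). Kars again had the lowest p, at 77.0 to 204 CPM (median 150) in CD, with a log2 fold change of 1.10 (SE 0.32, adjusted p = 0.275, edgeR) and with all 3 low gainers above all 6 CD libraries. Wars2, the mitochondrial tryptophan gene, was the only one with all low gainers below CD, at 13.9, 11.8 and 6.00 CPM against 15.3 to 26.9 (-0.96, adjusted p = 0.365). These 2 of 36 genes, 1 above and 1 below, compare with 7.52% of all genes, 3.61% above and 3.92% below. Mars was at 0.55 (adjusted p = 0.553) and Lars2 at 0.04 (adjusted p = 0.988), with values of either sign when single libraries were left out and 1.57 with the mitochondrial read share as a covariate (adjusted p = 0.575, edgeR). The median over the 35 genes was 0.00 and -0.08 for all genes. No related gene passed. The low gainers enter both of these comparisons, and the 16-week CD and HFD libraries each enter several, so that the comparisons are not independent.

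The interaction of diet and time tested whether the difference between HFD and CD was unlike at 16 and at 4 weeks. Mars was the only synthetase gene that passed, 1 of 36 against 3.66% of 12235 genes by edgeR's quasi-likelihood test. At an unadjusted p under 0.05 there were 5, against 23.4%. At 4 weeks it was at 35.3, 43.0, 42.6, 16.1 and 73.7 CPM in CD and at 77.8, 86.6, 83.3, 61.3 and 52.7 in HFD. At 16 weeks it was at 29.5 to 97.4 CPM (median 79.7) in CD and 25.7 to 60.4 (median 46.8) in HFD. HFD was thus the higher group at 4 weeks (0.76, adjusted p = 0.138) and the lower one at 16 weeks (-0.75, adjusted p = 0.0965), neither of which passed alone. The difference of the differences was -1.44 (SE 0.42, adjusted p = 0.0487, edgeR).

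The value was below 0, as for 235 of the 448 genes past the threshold, or 1.92% of all genes tested, and the call was close to it. It was lost in 16 of 23 fits that left out 1 library (adjusted p of up to 0.0924), and without the 16-week CD libraries 1 and 2 (-1.43, adjusted p = 0.0893). Without the 16-week CD library numbered 9, 4 synthetase genes passed, against 13.8% of all genes. With replicate numbers as a block no synthetase gene passed (0.0817% of all genes) and Mars was at -2.51 (adjusted p = 0.0974, edgeR). With the GC trend removed Mars (-1.29, adjusted p = 0.0402) and Farsb (-1.17, adjusted p = 0.0477) passed. Of the 36 genes, 28 had values below 0, among them 18 of the 20 cytosolic and 10 of the 16 mitochondrial ones. The share of all genes below 0 is not given here, so these counts are not read as particular to the synthetase genes. Pearson's r of GC content and the interaction was -0.40 over the 36 genes and -0.21 over 12059 genes. Vars was at -2.01 (adjusted p = 0.0639), and at -0.38 without the 16-week CD libraries 1 and 2. Among the related genes, Eif2ak3, the eIF2 kinase of the endoplasmic reticulum, passed with -1.74 (adjusted p = 0.0295), beside 3.66% of all genes, and no gene of the other lists did. Its call was lost in 9 of 23 fits that left out 1 library. Lars2 was at 0.66 (adjusted p = 0.661, edgeR).

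The GC content of the transcripts went along with the fold changes of the synthetase genes in each comparison. Cytosolic genes ranged from 41.2% (Dars) to 60.9% (Vars) and mitochondrial ones from 38.8% (Mars2) to 60.1% (Sars2), with medians of 49.8% and 49.4%, close to the 49.3% of all genes. The value of Mars2 is that of a transcript longer than its counted entry. Pearson's r over genes was 0.68 for leptin, -0.44 for 4 weeks of HFD and -0.72 for 16 weeks of HFD. It was 0.63 for the low gainers against HFD and -0.45 for them against CD. Over all genes tested it was 0.31, -0.27, -0.44, 0.50 and 0.05. With the trend of each library removed, the values over the synthetase genes were 0.36, -0.20, -0.42, 0.23 and -0.45. The slope of log2 level on GC content, per 10 percentage points, was -0.48 to -0.26 in the 16 C libraries and 0.03 to 0.63 in 16 L, and it was -0.83 to -0.32 in 16-week HFD and -0.14 to 0.20 in the low gainers. The GC-rich genes Vars and Wars (53.4%) in 16 L and Aars and Mars (53.4%) in the low gainers moved in the direction of these slopes. So did the GC-poor gene Eprs in 16 L and Tars2 (51.1% GC) in the low gainers. Kars (47.3% GC) in the low gainers moved against that direction. The part of GC content in each result was not tested beyond the fits given above.

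**Figure D5:**
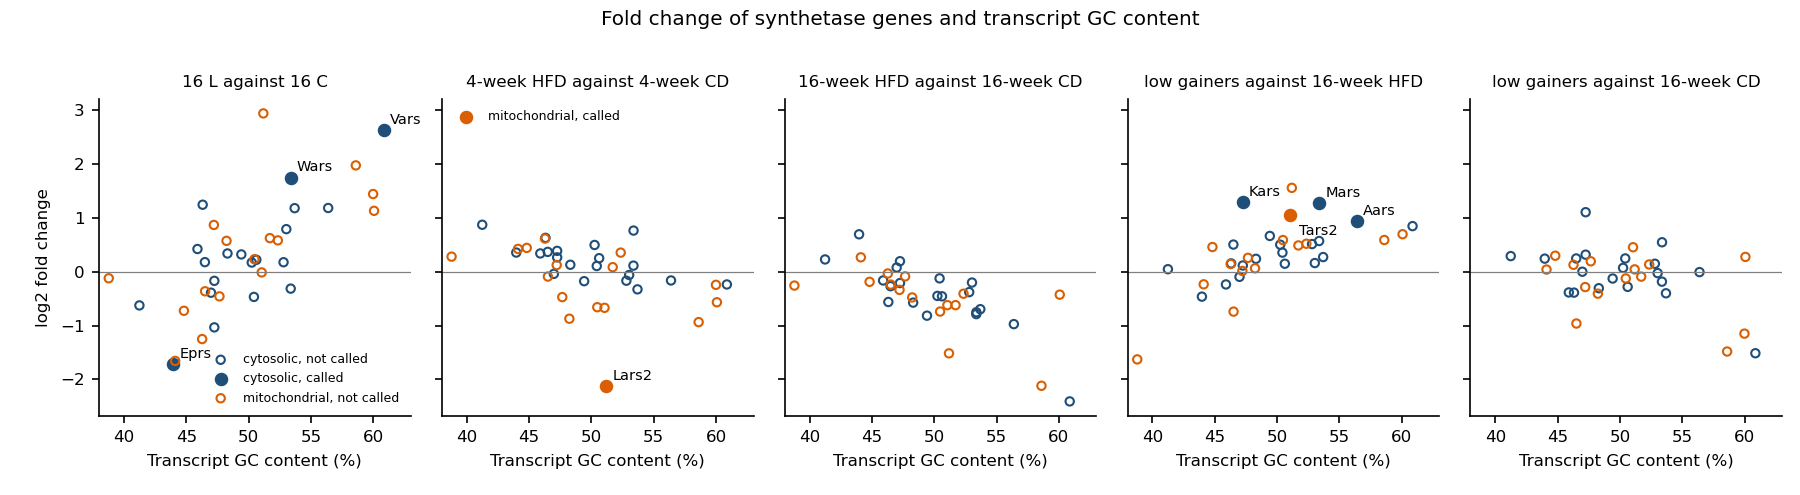
Log2 fold change of each synthetase gene against the GC content of its longest transcript in percent, 1 panel for each of the 5 comparisons of groups, cytosolic and mitochondrial genes in separate colours and filled symbols for genes that passed. The points rise with GC content in 16 L (r of 0.68) and in the low gainers against 16-week HFD (0.63), and fall with it in 16-week HFD (-0.72).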

How the data were processed

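The authors made Smart-seq2 oligo-dT libraries with the Nextera XT kit and deposited 1 table of read counts per gene and library, whole numbers without normalization. The submitters' processing notes name Trim Galore 0.4.2, HISAT2 2.0.5 and GRCm38, and the counting program and its use of strand are not given in the sources used here. Groups and replicate numbers came from the sample labels. Columns of per-sample values left unused numbered 0. No replicate columns were identical in 72 pairs within groups.

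Each comparison was fitted to the counts of its own libraries with edgeR 4.0.16 in R 4.3.3 (robust quasi-likelihood F-test, two-sided, TMM factors, filterByExpr), over all genes that passed the filter, with Benjamini-Hochberg adjustment and a threshold of 0.05. Simulated data with known changes served to check the edgeR fit of each comparison, with and without the GC trend removed, and no other fit. The alternatives were DESeq2 1.42.0, limma-voom 3.58.1 with sample quality weights, RLE factors, library totals, 1 fit of all 34 libraries, a filter of 10 counts in each library or none, a replicate block, the mitochondrial read share as a covariate, and leaving out each library. Removal of the GC trend (lowess span 0.3) and leaving out the 16-week CD libraries 1 and 2 were chosen after seeing the data. So were the covariate for genes other than Lars2 and the split of the libraries into sets by TMM factor. Correlations had permutation p-values (scipy 1.17.1, 100000 resamples or exact). Promoters came from RefSeq (GRCm38.p6), and transcript lengths and GC content from GENCODE M21, matched for all 36 genes. Values are given for every gene that passed in a comparison, for Lars2, for the gene of lowest p where none passed, and for at most 4 passing genes per related list. The genes and lists were chosen with earlier results of these data known. Intervals and floors cover counting error only, since reads carried no molecular identifiers.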

Additional observations from a re-analysis of the deposited data

Results flagged for a closer look

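In 55 groups of values tested for a single library far from the rest, about 1 in 20 would be marked by chance. Among the synthetase genes, Eprs was at 377 CPM in the 16-week HFD library numbered 12, whereas the next lowest of that group was at 610. Lars2 was at 1209 CPM in the 16-week HFD library numbered 6, whereas the next highest was at 271. Mars was at 29.5 CPM in the 16-week CD library numbered 9, whereas the next lowest was at 75.1.

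The share of mitochondrially encoded reads was 4.71% in the 16 L library numbered 19, and at most 0.654% in the others of 16 L. Oviduct epithelium markers summed to 29971 RPM in the 16 L library numbered 18 (next 2309), to 61.9 RPM in the 4-week HFD library numbered 14 (next 24.6) and to 406 RPM in the 16-week HFD library numbered 10 (next 90.4). Oocyte markers summed to 346 RPM in the 4-week HFD library numbered 5 (next 1.19).

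The difference between HFD and CD in Mars was unlike at the 2 times, with an interaction of -1.44 on the log2 scale (adjusted p = 0.0487, edgeR).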

How the results depend on the processing

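Each of the 6 tests changed its number of synthetase genes called under some alternative, and the causes were not tested. The share of all genes called in the same fit follows each number. A count of 0 allowed up to 2.72 RPM, and Aars2 and Pars2 had no read in 1 and 2 libraries. In 16 L against 16 C, where 3 genes passed (8.56%), 13 did in a fit of all 34 libraries (33.1%), 5 with at least 10 counts per library (11.9%), 9 with DESeq2 (22.4%), 14 with library totals (34.4%), 19 with limma-voom (64.4%) and 1 without a filter (2.66%). After choices made with the data seen, 10 did with the GC trend removed and the 16 L library 18 left out (39.8%) and 7 with the mitochondrial share as a covariate (15.6%). In 4-week HFD (1 gene, 4.26%) the number was 0 in the fit of all libraries (0.521%), 2 with DESeq2 (11.0%) and 12 with limma-voom (34.5%). In 16-week HFD (0, 0.0276%) it was 4 in the fit of all libraries (9.5%), 3 with DESeq2 (9.72%) and 9 with library totals (15.2%). In the low gainers against 16-week HFD (4, 20.7%) it was 8 with limma-voom (29.2%) and 1 with the mitochondrial share as a covariate (1.49%), where Aars reversed to -0.28. That share did not overlap between these groups, so the fit with it can hardly tell group and share apart. Against 16-week CD (0, 0.00861%) the number of genes was 1 with limma-voom (1.69%). In the interaction (1, 3.66%) it was 0 without the 16-week CD libraries 1 and 2 (added later, 0.725%), with the covariate (added later, 0.237%), in the fit of all libraries (1.19%) and without a filter (1.55%), 3 with DESeq2 (9.52%) and with library totals (7.14%), 9 with limma-voom (19.2%) and 2 with the GC trend removed (added later, 6.82%).

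Leaving out 1 library at a time gave 0 to 16 genes in 16 L, with 16 and 5 without the 16 L libraries 18 (41.8%) and 19 (14.4%), and 0 without any other library of either group. It gave 1 to 5 in 4-week HFD (5 without the CD library 11, 14.4%), 0 to 8 in 16-week HFD (8 without the CD library 9, 20.5%, and 2 without 13, 4.29%) and 2 to 6 in the low gainers against HFD (2 without the low gainer 23, 5.19%, and 6 without the HFD library 6, 24.5%). It gave 0 to 0 against CD and 0 to 4 in the interaction (4 without the 16-week CD library 9, 13.8%, 3 without the 4-week CD library 11, 9.73%, and 2 without the 16-week CD library 5, 5.49%). Lars2 in the low gainers against CD ranged from -0.12 to 0.27 with each library left out, and was -0.21 with library totals and 1.57 with the covariate. Its interaction ranged from -0.30 to 0.90, and against 16-week HFD its values ran from 1.36 to 5.402 over all alternatives, 3 of 19 past the threshold. Of the genes named, Kars passed in 19 of 19 alternative fits against 16-week HFD, Mars in 18, Aars in 16 and Tars2 in 15. Lars2 passed in 18 of 19 in 4-week HFD, Eprs in 12 of 18, Wars in 10 of 18 and Vars in 9 of 17 in 16 L, and Mars in 13 of 34 in the interaction. The r of Lars2 with the mitochondrial share was -0.11 after group means were removed.

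With library totals the all-gene median of the log2 fold change went from 0.27 to 1.08 in 16 L and from -0.05 to -0.40 in 16-week HFD. Calls over all genes were then 3652 higher and 383 lower in 16 L (476 and 528 with TMM factors), 91 and 571 in 4-week HFD (140 and 359), 1585 and 598 for low gainers against HFD (1212 and 1118), 55 and 1591 in 16-week HFD (1 and 2), and 187 and 686 in the interaction (213 and 235). Replicate numbers are shared between a 4-week and a 16-week library in 7 pairs. Their deviations correlated between -0.282 and 0.147, so that the numbers do not pair the samples. With the replicate block 0 synthetase genes and 10 genes in all passed the interaction, and Lars2 reversed to -0.13. No paired analysis was possible in the other comparisons because their groups share no replicate numbers.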

Other observations

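Without the 16 L library numbered 18, other genes near the synthetases also passed in 16 L against 16 C, beside 41.8% of all genes tested (edgeR, Benjamini-Hochberg adjusted). All 16 C libraries were then in the lower set by TMM factor and all remaining 16 L libraries in the upper one. Leptin and set therefore cannot be told apart in these values. The library numbered 18 was left out with its marker values known. With it, 8.56% of all genes passed, and of the genes named here Gcn1l1 and Impact did and the other 8 did not. Of the 10 genes of amino acid sensing, 4 were higher and 2 lower without it. Gcn1l1 was at 3.79 to 5.79 CPM in 16 C and at 47.1 to 59.0 in the 4 remaining 16 L libraries (log2 fold change 3.34, adjusted p = 7.8e-05). Impact was at 349 to 491 CPM in 16 C and at 14.5 to 33.7 in 16 L (-4.47, adjusted p = 6.4e-05), and Eif2s1 at 250 to 337 and 51.0 to 193 (-1.75, adjusted p = 0.0086). Of 24 ATF4 target genes tested, 4 were higher and 6 lower. Herpud1, which encodes a protein of degradation at the endoplasmic reticulum, was at 187 to 218 CPM in 16 C and at 22.7 to 32.1 in 16 L (-2.98, adjusted p = 6.1e-05). The cationic amino acid transporter gene Slc7a1 was at 80.4 to 91.0 CPM and at 181 to 220 (1.08, adjusted p = 0.0049).

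In the same comparison Eef2, the elongation factor that moves the ribosome along the mRNA, was at 293 to 392 CPM in 16 C and at 829 to 934 in 16 L (1.32, adjusted p = 0.0025), and the other 4 elongation genes did not pass. Prorsd1, a gene related to prolyl-tRNA editing, was at 82.6 to 100.4 CPM and at 5.52 to 13.5 (-3.19, adjusted p = 0.00010). Dtd1, which encodes an enzyme that removes D-amino acids from tRNA, was at 13.9 to 15.2 CPM and at 3.04 to 6.11 (-1.73, adjusted p = 0.0081). Mtrf1 and Mtif3, which encode a release factor and an initiation factor of mitochondrial translation, were lower by 2.30 (adjusted p = 0.0222) and 0.88 (adjusted p = 0.0239), and the other 10 genes of that list tested did not pass. With the trend on GC content removed as well, Eef2 was at a log2 fold change of 0.46 (adjusted p = 0.19) and no longer passed, and Gcn1l1 was at 2.37 (adjusted p = 0.00063). The other genes named here still passed in that fit, beside 39.8% of all genes tested.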
